A study of Drosophila melanogaster with 36 samples.

Results

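The pupa 5 days after the white prepupa (WPP+5d) was compared with the pupae of the 3 days before it (WPP+2d, WPP+3d and WPP+4d), by the RNA start-site signal of each gene in whole Drosophila melanogaster. These 4 libraries were taken, by the stage in their labels, from 36 libraries that cover the life cycle, each made from a pool of whole animals of 1 stage, with no replicate library. All animals were of the y; cn bw sp strain, untreated, and the age of the pupae counts from the white prepupa, the first motionless form after the larva. The sex of the pooled pupae is not given in the labels. RAMPAGE, the assay used, captures capped RNA and sequences the 5′ ends of its cDNA, so that a gene's value counts start-site reads and does not grow with the length of the gene. The values are RPM, reads per 1000000 reads, here of plus-strand genes alone, since the deposited table lists every minus-strand gene at 0 in the pupae.

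In a fly pupa the larval tissues are broken down and the adult is built from imaginal discs and nests of precursor cells. Late in this period the animal is a pharate adult, an almost finished fly that lies within the pupal case with its new cuticle, bristles, eyes and flight muscles, until it emerges at eclosion. Genes of adult muscle, of the sense organs and of the adult reproductive tract are known to come on late in this period, whereas genes that respond to ecdysone, the moulting hormone, and genes of cuticle secretion come on in earlier waves.

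The WPP+5d library was the deepest, with 16690598 reads recovered from the deposited values, against 3050159 at WPP+2d, 1889162 at WPP+3d and 4419830 at WPP+4d. A level of 10 RPM stood for 166.9 reads at WPP+5d and for 18.9 to 44.2 reads in the other 3 libraries. Of 6313 plus-strand genes, 4990 had at least 10 RPM in at least 1 of the 4 libraries and were tested. Whole animals were measured, so fewer cells of a type and less RNA per cell cannot be told apart. Values of the first day (WPP+1d) and of adult males and females, 5 days after eclosion, are given beside the results without a test. The adults came from another RNA extraction, another multiplexed library and another sequencing instrument. Of the 4 compared libraries, WPP+5d was lowest in a sex marker, the male transcript roX2, with 62.2 RPM against 661.1 to 1149 RPM in the mid pupae. Beyond these 4, roX2 read 211 RPM at WPP+1d and from 4.59 to 817.7 RPM in the larval libraries. Its values are given below with those of the testis genes.

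A small number of genes took most of the signal of the five-day pupae. The 10 genes highest at WPP+5d together held 57.31% of its plus-strand reads, against 1.28% of those at WPP+1d, 3.17% at WPP+2d, 1.92% at WPP+3d and 13.55% at WPP+4d. CG17298 alone, a gene known by its number, held 42.6% of the reads at WPP+5d. Its level was 5.57 RPM at WPP+2d, 810.5 RPM at WPP+3d, 206.6 RPM at WPP+4d and 425572 RPM at WPP+5d. That is 525-fold above the highest of the 3 mid-pupal libraries. The change in CG17298 (FBgn0038879, dm3 chromosome 3R, highest peak at 17108773 to 17108994) was 12.01 ± 2.59 (SE) on the log2 scale and did not pass the test (adjusted p = 0.15, limma). In adults it was back at 10.9 RPM in both sexes.

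The next 2 genes in order, CG13067 and CG13678, were high at WPP+2d, low in between and highest at WPP+5d. CG13067 read 13451, 486.5 and 13.6 RPM at WPP+2d, WPP+3d and WPP+4d and 30523 RPM at WPP+5d. CG13678 read 12720, 99.5 and 11.5 RPM and then 24380 RPM. CG42323 and the cuticle protein gene Cpr49Ae had another course, since both were highest at WPP+4d, with 60182 and 44292 RPM, and still held 17017 and 16139 RPM at WPP+5d. The other 5 of the 10 were highest at WPP+5d. They were FBgn0086783, which has no symbol in the tables used here, the troponin C gene TpnC73F, the muscle actin gene Act87E and the respiratory chain genes UQCR-Q and COX5A. COX5A read 1111, 1855 and 3080 RPM in the mid pupae and 9800 RPM at WPP+5d, and UQCR-Q read 1935, 4328 and 5693 RPM and then 10043 RPM. Act87E stood at 931.6, 1308 and 4052 RPM and then at 9000 RPM. Of the 10, 8 lay above all 3 mid-pupal libraries at WPP+5d, all but CG42323 and Cpr49Ae, and none passed the test.

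**Figure D1:**
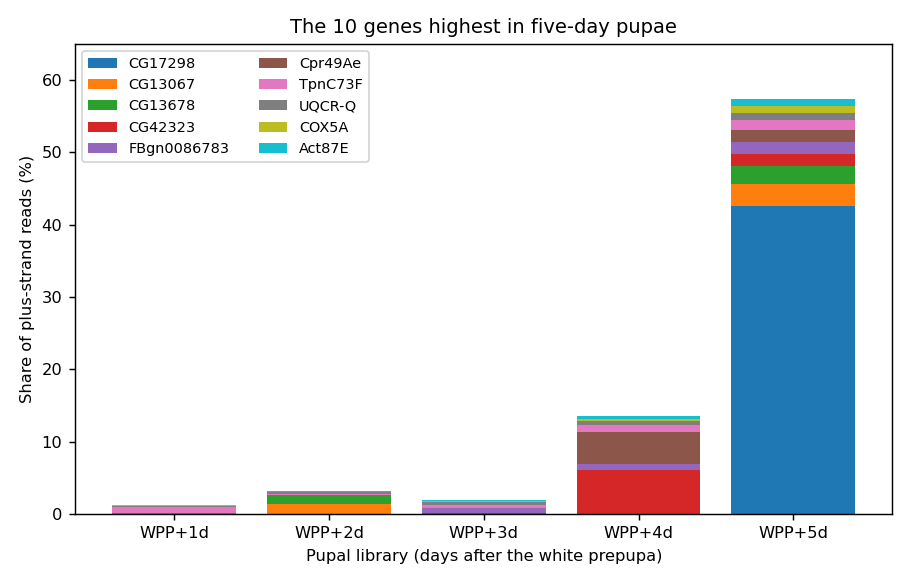
Share of the plus-strand reads, in percent, held in each pupal library by the 10 genes that are highest at WPP+5d (stacked bars, 1 library per day). The 10 genes add up to 57.31% at WPP+5d and to 13.55% or less on the other days, and CG17298 makes up most of the last bar.

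This share sets the scale of every other value, because RPM values add up to the same total in each library. Over all 4990 genes tested, the median log2 change from mid to five-day pupae was -1.33, and it was -0.26 once the 10 genes had been left out of every library and the rest rescaled. Below, a log2 change is WPP+5d minus the mean of the 3 mid pupae on the log2(RPM + 1) scale, which understates the change of low genes. Each is to be read against -1.33, and the value with the 10 genes left out against -0.26.

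With all plus-strand reads, the five-day library lay above all 3 mid-pupal libraries for 381 genes (7.64% of those tested) and below all 3 for 2904 (58.2%). It lay at least 4-fold above them for 112 genes (2.24%) and at least 4-fold below them for 670 (13.4%). With the 10 genes left out, 5141 genes passed the filter, and the split was 1089 above (21.2%) and 1630 below (31.7%), or 244 (4.75%) and 315 (6.13%) by at least 4-fold. Genes above thus made up 14.32% of those at least 4-fold outside the range on the first scale, 43.65% on the other and 51.36% with median-of-ratios scaling (245 above and 232 below). These counts carry no test, since 1 library against 3 cannot give a one-sided exact permutation p below 0.25. The counts of list members above or below, given further on, are to be read beside these shares.

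A test across genes was made with limma, in a fit of all 10 larval and pupal libraries in which the single WPP+5d library was assumed to vary like the groups that hold 2 or 3. The groups are neighbouring stages, so that the spread includes change from day to day. Calls required an adjusted p under 0.05 together with a change of 2-fold or more. Of 4990 genes, 24 were called higher in five-day pupae (0.481%) and 1 was called lower (0.02%), together 0.501%, while 573 had an unadjusted p below 0.05. With the 10 genes left out, 49 were called higher (0.953%) and 6 lower (0.117%), together 1.07%. Of the 25 calls, 24 remained there. edgeR on the recovered reads called 2 genes, Obp19d and CG14961, each at an adjusted p = 0.0257, and a fit of the 4 libraries alone called none, with 902 genes at an unadjusted p below 0.05. Without the WPP+4d library 55 were called higher and 30 lower, and 229 genes lay at least 4-fold above and 1192 at least 4-fold below the other 2 mid pupae.

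The 24 genes called higher were genes without a read, or nearly so, in the mid pupae. For 18 of them all 3 mid-pupal libraries were listed at 0, and for 17 so were all 9 other larval and pupal libraries. None had 10 RPM in a mid-pupal library, so all 24 entered the test through WPP+5d alone, as did 126 of the genes tested. For the 17 at 0 elsewhere no spread was measured, and the test rests on the spread that limma borrows from other genes. The levels of the 24 at WPP+5d ran from 10.8 to 2484 RPM with a median of 47.8 RPM. Most were also present in the adult: 19 had at least 10 RPM in an adult library, 15 were higher in an adult than at WPP+5d, and 19 were higher in the male than in the female. Like counts over all genes tested were not made, so these describe the 24 alone. The male library had 5744 plus-strand genes above 0 and the female library 4946. Only 13 of the 24 have a name other than a CG number.

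Of those with names, 6 belong to chemosensory families. Odorant-binding proteins are small secreted proteins of the fluid around sensory neurons. Obp19d (CG1668, dm3 chromosome X, 20291106 to 20291142) was listed at 0 RPM at WPP+2d and WPP+3d and read 0.905 RPM at WPP+4d and 2484 RPM at WPP+5d. It rose by 10.97 ± 1.45 (SE) on the log2 scale (adjusted p = 0.0159, limma), 2745-fold over the WPP+4d value, and read 1775 RPM in males and 262.5 RPM in females. Obp57c was at 0 in the 3 mid pupae and at 52.7 RPM at WPP+5d, at least 33.2-fold higher than the largest floor among them, 1.59 RPM, which is 3 reads of the WPP+3d library. Counted in the same way, its relative Obp57a, with 12.8 RPM, was at least 8.04-fold higher and Obp19b (chromosome X, 20287745 to 20287758), with 15.5 RPM, at least 9.77-fold higher. CheA7a (chromosome X, 7272155 to 7272176) and CheA75a (chromosome 3L, 18245176 to 18245185), members of a family of secreted proteins named for chemosensation, reached 105.4 and 23.7 RPM from 0 in the 3 mid pupae, at least 66.4-fold and at least 14.9-fold higher. Their adjusted p-values in limma were 0.0038 and 0.0108, that of Obp57c was 0.00423, and those of Obp19b and Obp57a were 0.0159 and 0.021. Obp19b lost its call with 10 RPM added in place of 1 (adjusted p = 0.0602, limma). Obp57a is named here after its value was seen.

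Others of the named genes belong to the eye and the cuticle or carry names from the reproductive tract. trpl (FBgn0005614) encodes a light-gated cation channel of photoreceptors, which works beside the channel TRP. It was at 0 in the 3 mid pupae and at 21.6 RPM at WPP+5d, at least 13.6-fold higher (adjusted p = 0.0108, limma). retinin (FBgn0040074, dm3 chromosome 3L, 16325020 to 16325036), known as a protein of the corneal lens, went from 0 to 55.4 RPM, at least 34.9-fold higher (adjusted p = 0.00423, limma). Both were at similar or higher levels in adults, with 93.4 and 229.9 RPM in males. Acp62F (FBgn0020509, chromosome 3L, 2739716 to 2739778), a protease inhibitor of the seminal fluid made in the male accessory gland, reached 85.8 RPM from 0, at least 54.0-fold higher (adjusted p = 0.0038, limma), against 3891 RPM in adult males and 1.05 RPM in adult females. mtrm, the female-germ-line inhibitor of Polo kinase called matrimony, reached 13.5 RPM from 0 (adjusted p = 0.025, limma), with 202.8 RPM in adult females and 0 in males. It lost its call with 10 RPM added (adjusted p = 0.103, limma).

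Try29F, which carries the name of a trypsin-like serine protease, was the one named gene called higher that was at or near 0 in both adults. It read 0 in the 3 mid pupae, 299.8 RPM at WPP+5d, 1.24 RPM in males and 0 in females (FBgn0015316, dm3 chromosome 2L, 8998603 to 8998619). It was at least 188.8-fold higher in five-day than in mid pupae (log2 change 8.23 ± 0.64 SE, adjusted p = 0.00247, limma). Jhbp13 (CG5945, chromosome 2L, 13239979 to 13240133), named for the haemolymph proteins that bind juvenile hormone, reached 233.4 RPM from 0 and stayed at 395.8 RPM in males and 120.3 RPM in females. It was at least 147-fold higher (adjusted p = 0.00247, limma). BG642163 rose from 0 to 21.6 RPM, at least 13.6-fold higher (adjusted p = 0.0108, limma), and read 56.2 RPM in males and 0 in females. Of the 12 genes named by size, Obp19d alone passed in edgeR.

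**Figure D2:**
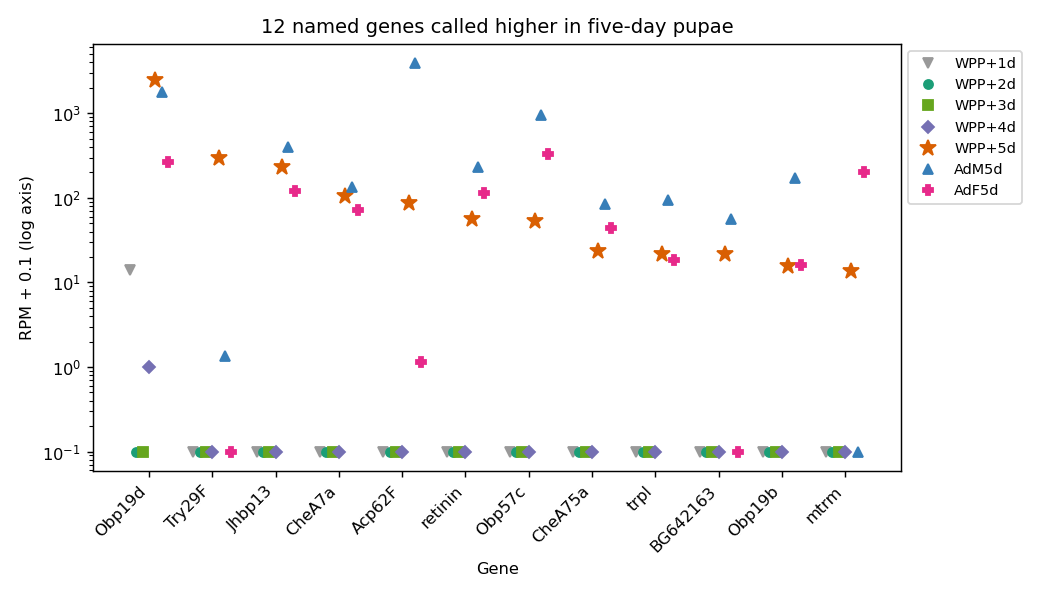
RPM + 0.1 (log axis) of the 12 named genes with the largest rise among those called, in the 5 pupal libraries and in adult males (AdM5d) and females (AdF5d), 1 point per library, with points at the bottom listed at 0. Obp19d had 14.07 RPM at WPP+1d and 0.905 RPM at WPP+4d, all other points of the earlier pupae are at 0, and Try29F is high at WPP+5d and at or near 0 in adults.

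Among the 11 called genes known by number were 2 that rank with the highest of the 24. CG14961 read 0.656, 1.06 and 0.226 RPM in the mid pupae and 1629 RPM at WPP+5d (adjusted p = 0.0151, limma), and it was at 0 in both adults. CG42759 read 0, 0 and 0.226 RPM and then 428 RPM (adjusted p = 0.0159, limma), with 1.49 RPM in males. Both are thus high at WPP+5d alone among the pupae and adults. CG14645 showed the reverse order, with 29.5 RPM at WPP+5d against 4486 RPM in males and 5752 RPM in females. These 3 are named after their values were seen.

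RpL40, which encodes a fusion of ubiquitin with a protein of the large ribosomal subunit, was the 1 gene called lower. It read 14938, 6706 and 9599 RPM in the mid pupae and 233.4 RPM at WPP+5d, and fell by 5.40 ± 0.87 (SE) on the log2 scale (adjusted p = 0.0399, limma; CG2960, dm3 chromosome 2L, 4227634 to 4227790). The five-day library was 28.7-fold below the lowest of the mid pupae, and adults were at 8375 and 21446 RPM. With the 10 genes left out the call was lost (adjusted p = 0.0744, limma), though the value was still 12.5-fold below the lowest mid pupa.

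Most structural muscle genes lay above the mid pupae. Of 13 on the plus strand, all of which passed the filter, 9 were above all 3 mid-pupal libraries, 1 was below them and none was called, beside 7.64% and 58.2% of all genes. Their median log2 change was 2.12, and 3.25 with the 10 genes left out, 0.97 without WPP+2d and 3.07 without WPP+4d. The summed signal was 8984, 13937 and 36680 RPM in the mid pupae, 50024 RPM at WPP+5d and 6329 and 4565 RPM in adult males and females. Zasp66, a protein of the Z-disc, which anchors the thin filaments, read 586, 17.5 and 434.4 RPM and then 6455 RPM, 11.0-fold above the highest of them. It did not pass the test (log2 change 5.27 ± 1.87 SE, adjusted p = 0.376, limma). The muscle actin gene Act57B read 459.7, 142.4 and 769.3 RPM and then 4441 RPM.

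Act88F, the actin of the indirect flight muscle, was already high at WPP+4d, and its five-day value was close to that of the day before. It read 57.1, 1839, 3752 and 4436 RPM from WPP+2d to WPP+5d and 0 RPM at WPP+1d. Act79B, an actin of adult leg and other tubular muscles, had a like course with 233.8, 761.8, 4169 and 5120 RPM. The exception was tmod, which encodes the thin-filament capping protein tropomodulin. It read 4144, 3681 and 1949 RPM in the mid pupae and 342.1 RPM at WPP+5d, 5.70-fold below the lowest of them. Mp20, a gene of synchronous muscle named after its values were seen, read 82.96, 152.5, 526.5 and then 3829 RPM.

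Genes of the mitochondrial respiratory chain and ATP synthase, which supply the ATP that flight muscle uses, are given as 2 sets. The sets were told apart after their values were seen. Of 52 measured members, all past the filter, 12 were above and 15 below all 3 mid pupae, with none called and a median log2 change of 0.37 (1.37 with the 10 genes left out, and -0.17 without WPP+2d). Over all genes 7.64% were above, 58.2% below and 13.4% at least 4-fold below. Of the 52, 11 members have a symbol made by adding L to the symbol of another gene, which marks a paralogue. All 10 of those 11 that lay outside the range were below it, 8 of them at least 4-fold, and the median of the 11 was -3.37 (-3.48 with members at 0 set to the floor). The other 41 had 12 above and 5 below, with a median of 0.67. The sum of the 11 paralogues was 866, 1531 and 1453 RPM in the mid pupae, 72.3 RPM at WPP+5d, 1741 RPM in adult males and 0.176 RPM in adult females. COX5BL, a paralogue of a cytochrome c oxidase subunit, illustrates them with 164.6, 264.2 and 308.8 RPM, then 10.2 RPM (log2 change -4.41 ± 2.07 SE, adjusted p = 0.454, limma). The summed signal of the other 41 was 18846, 44323 and 68408 RPM and then 66959 RPM. WPP+5d thus did not exceed WPP+4d by the sum on this scale, whereas with the 10 genes left out the five-day sum was 110358 RPM.

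Enzymes of glycolysis had 3 of 6 members above all 3 mid pupae and 1 below, beside 7.64% and 58.2% of all genes. None was called, and the median log2 change was 0.77 (1.90 with the 10 genes left out, and 0.35 without WPP+3d). Gpdh1, glycerol-3-phosphate dehydrogenase, whose shuttle feeds electrons to the flight muscle's mitochondria, read 107.9, 24.4 and 19.5 RPM and then 370.6 RPM. Glyp, glycogen phosphorylase, named after its values were seen, read 66.9, 126.5, 274.2 and then 1141 RPM. Hex-A, a hexokinase, was below the range on the first scale, with 96.2 RPM against 99.6 RPM at WPP+4d, and above it with the 10 genes left out.

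The chemosensory list held 6 of the 24 genes called higher. Of 41 plus-strand chemosensory genes 17 passed the filter, 6 were called higher and none lower (0.481% and 0.02% of all genes), 8 were above all 3 mid pupae and 5 below. Since 7 of the 17, the 6 called among them, entered through WPP+5d alone, they had to be high there, and the median log2 change of the 17, 2.79, carries that choice. Os-C, a gene of the antenna named for olfactory tissue, read 0, 8.47 and 3.62 RPM and then 80.0 RPM. Members below the range included Obp56a, with 15636, 4040 and 599.1 RPM and then 280.6 RPM, and Or23a, an odorant receptor gene. Ir54a, an ionotropic receptor gene, read 96.1, 48.7 and 40.3 RPM and then 0, at least 224.1-fold lower. Ir54a missed the threshold at an adjusted p = 0.0543 (limma) and passed with the 10 genes left out (adjusted p = 0.0182, limma).

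Genes of phototransduction, the cascade from rhodopsin to the TRP channels, had 15 of 17 members past the filter, 2 of which are identifiers of 1 gene, rdgC. The one called was trpl, and 5 were above and 3 below all 3 mid pupae, beside 0.481% called higher, 7.64% above and 58.2% below over all genes. Across the 15 the median log2 change was 0.91 (2.05 with the 10 genes left out, and 0.18 without WPP+3d), and 4 of them, trpl included, entered through WPP+5d alone, so that the counts and the median carry that choice. Rh5, the opsin of a class of blue-sensitive photoreceptors, read 0, 0 and 1.13 RPM and then 19.4 RPM, 17.2-fold over WPP+4d. It missed the threshold (adjusted p = 0.0977, limma) and passed with the 10 genes left out (adjusted p = 0.0146, limma). Arr1, an arrestin that ends the opsin's signal, read 2.95, 8.47 and 2.71 RPM and then 21.8 RPM. Galphaq, the G protein subunit of the cascade, which other tissues also use, read 1103, 1380 and 809.6 RPM and then 613.8 RPM. The glutathione transferase-related gene se (sepia), which acts in the synthesis of red eye pigment and is named after its values were seen, read 0, 0 and 7.24 RPM and then 211 RPM (adjusted p = 0.0697, limma, and 0.0272 with the 10 genes left out).

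General neuronal genes had 1 of 12 above and 3 below all 3 mid pupae, beside 7.64% and 58.2% of all genes. None was called, and the median log2 change was -0.11. With the 10 genes left out 8 were above and 1 below, beside 21.2% and 31.7% of all genes. The one above on the first scale was cpx, complexin, a regulator of transmitter release, with 336.8, 662.8 and 355.7 RPM and then 975.4 RPM. brp, which builds the active zone of the synapse, read 353.2, 840.1 and 655.2 RPM and then 188 RPM. With the 10 genes left out brp lay within the range. In a list of 15 neuropeptides and receptors around ecdysis 9 passed the filter. Of these, 3 were above and 2 below, beside 7.64% and 58.2% of all genes, with none called and a median of 1.15 (0.48 without WPP+3d). Dh44, a diuretic hormone gene, read 0, 2.12 and 0.226 RPM and then 11.6 RPM. It entered through WPP+5d alone and had to be high there, so the count above and the median carry that choice. Nplp4 read 914.5, 0 and 1.13 RPM and then 340.7 RPM. Leaving the 10 genes out moved the median of the neuronal list above 0, to 1.01.

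**Figure D3:**
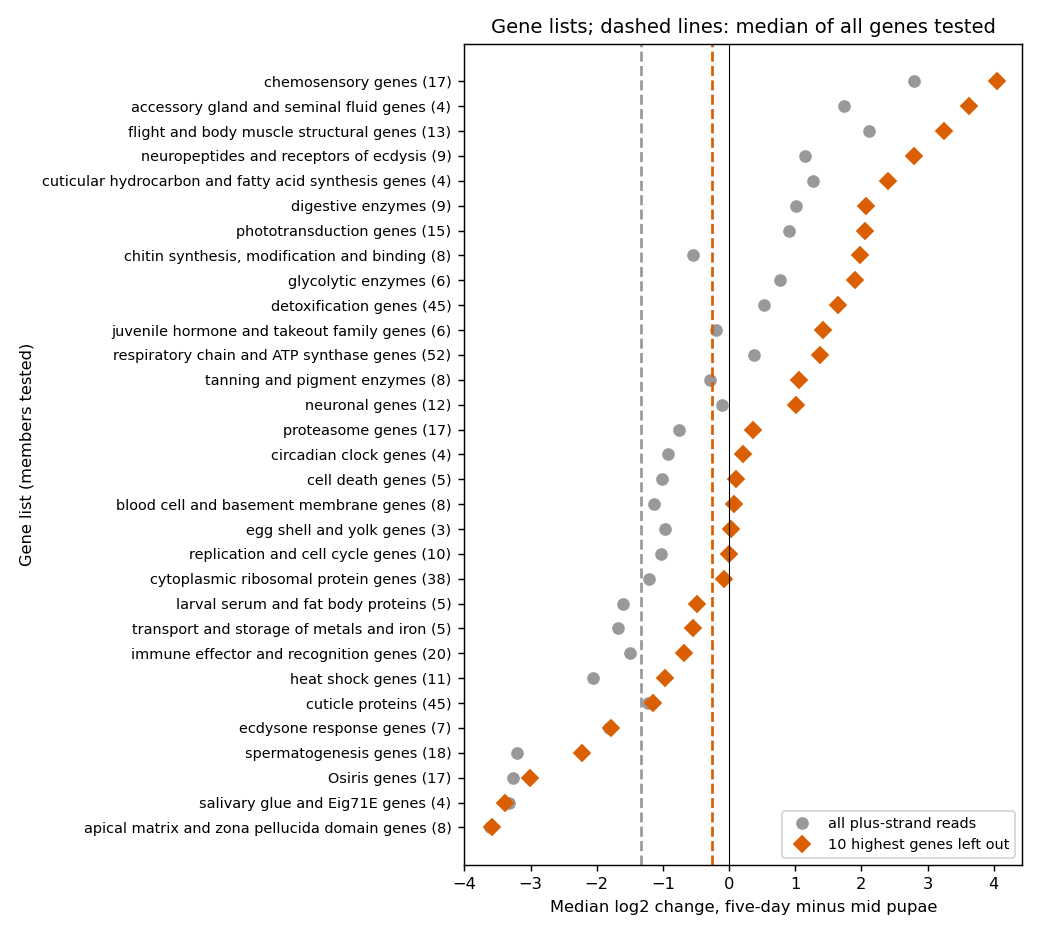
Median log2 change, WPP+5d minus the mean of the mid pupae, of each of 31 gene lists, with the number of members tested in parentheses, for all plus-strand reads (circles) and with the 10 highest genes left out (diamonds). Dashed lines mark the median of all genes tested, -1.33 and -0.26. Muscle genes, none of which entered through WPP+5d alone, lie to the right of their line on both scales, whereas genes of the apical matrix, the Osiris genes and spermatogenesis genes lie to the left.

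Structural cuticle genes differed from one another in the day of their highest value. The insect cuticle is secreted by the epidermis as chitin fibres and structural proteins, beneath an outer envelope laid down first. Among 63 plus-strand genes of structural cuticle proteins 45 passed the filter, 4 were above and 12 below all 3 mid pupae, and none was called. By these counts the list lay near the 7.64% of all genes above and short of the 58.2% below. The median log2 change was -1.22 beside -1.33 for all genes, and it was -1.15 with the 10 genes left out, -1.28 with members at 0 set to the floor, 0.00 without WPP+4d and -1.81 without WPP+2d. The summed signal of all 63 was 50124, 15015 and 119155 RPM in the mid pupae and 22381 RPM at WPP+5d. Cpr72Ea was highest at WPP+2d, with 44434, 1575 and 350.2 RPM and then 30.3 RPM. Cpr49Ah had 76.1, 7914 and 10602 RPM and then 32.9 RPM, and Cpr92F had 0, 82.0 and 18479 RPM and then 1220 RPM. Cpr64Ad had a late high value, reading 113.8, 0.529 and 11.1 RPM and then 1993 RPM, 17.5-fold above the highest mid pupa (log2 change 7.28 ± 2.27 SE, adjusted p = 0.34, limma). It was near 1 RPM in both adults.

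The Osiris genes, a cluster of insect genes for membrane proteins of cuticle-secreting cells, formed a single peak at WPP+3d. Of 19 on the plus strand 17 passed the filter, 7 were below all 3 mid pupae, none was above and none was called. By this count the list lay short of the 58.2% of all genes below. The sum of all 19 was 98.7, 75214 and 1401 RPM in the mid pupae and 17.3 RPM at WPP+5d. Osi3 made up most of it, with 7.21, 51450 and 35.1 RPM and then 0.24 RPM, and Osi7 read 17.7, 9786 and 150.5 RPM and then 0.24 RPM. Osi9 read 4.92, 7840 and 199.8 RPM and then 0.0599 RPM, a single read. The median log2 change of the list was -3.27, or -7.64 with members at 0 set to the floor. Because 1 day holds nearly all of the signal, the spread of the mid pupae was wide, and the SE of Osi3 was 4.04 beside a log2 change of -7.64 (adjusted p = 0.482, limma).

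Proteins with a zona pellucida domain, which tie the cell surface to the apical matrix and shape bristles and hairs, showed the same order. Of 8 genes of this list 4 were below all 3 mid pupae, each at least 4-fold, beside 58.2% and 13.4% of all genes. None was above and none was called. The 4 were tyn, neo, nyo and mey, and the median log2 change of the 8 was -3.62, or -5.72 with members at 0 set to the floor. With the 10 genes left out 4 were below and 2 above, beside 31.7% and 21.2% of all genes. trynity (tyn) read 1450, 5457 and 302.1 RPM and then 2.10 RPM, 144-fold below the lowest mid pupa (log2 change -8.76 ± 1.63 SE, adjusted p = 0.0775, limma). neo read 177.1, 471.7 and 15.4 RPM and then 0, at least 85.6-fold lower. nyo read 53.8, 237.7 and 72.6 RPM and then 0, at least 299.2-fold lower than the lowest of these. The bristle bundling gene f (forked) read 23.6, 1683 and 50.5 RPM and then 1.98 RPM, and sha (shavenoid), which acts in hair formation, read 26.6, 86.3 and 34.8 RPM and then 0. Both were chosen after their values were seen, and neither passed the test (adjusted p = 0.411 and 0.24, limma).

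Genes for chitin and for tanning were mixed, and their counts stand beside 7.64% of all genes above and 58.2% below all 3 mid pupae. Among 8 of 12 chitin genes past the filter, 2 of which entered through WPP+5d alone, 4 were above and 3 below all 3 mid pupae, none was called, and the median log2 change was -0.55 (1.98 with the 10 genes left out). The 4 above were the growth factor genes Idgf1, Idgf2, Idgf3 and Idgf6, which belong to the chitinase family but lack its enzyme activity, and the 3 below were obst-A, obst-B and Cht5, which organise or digest chitin. obst-A read 75.8, 102.2 and 167.2 RPM and then 0.0599 RPM, a single read. Idgf1 read 0.328, 0 and 0.226 RPM and then 34.9 RPM. Of the 13 tanning and pigment enzymes 8 passed the filter, with 1 above, 2 below, none called and a median of -0.29 (1.05 with the 10 genes left out). yellow-c was the one above, at 57.6 RPM against 42.5 RPM at WPP+4d. The mucin-like gene Mur18B, named after its values were seen, had 102, 48.7 and 6.33 RPM, then 620.7 RPM, and 2355 RPM in adult males.

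Of 7 genes that respond to ecdysone, all past the filter, 5 were below all 3 mid pupae, beside 58.2% of all genes, none was above and none was called. With the 10 genes left out 3 of the 7 were below. Their median log2 change was -1.82 (-1.78 with the 10 genes left out), and it ran from -3.20 to -1.16 with 1 mid-pupal library left out. ImpE1, a gene first isolated from imaginal discs treated with the hormone, read 166.6, 1017 and 97.97 RPM and then 0.599 RPM, 163.5-fold below the lowest mid pupa (log2 change -7.33 ± 1.64 SE, adjusted p = 0.175, limma). ImpL1 read 52.5, 3480 and 45.03 RPM and then 1.08 RPM. Eip78C, a nuclear receptor of the ecdysone cascade, read 101.3, 2245 and 174.2 RPM and then 11.8 RPM. For these 3 the highest day was WPP+3d, the same day as for the Osiris genes.

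**Figure D4:**
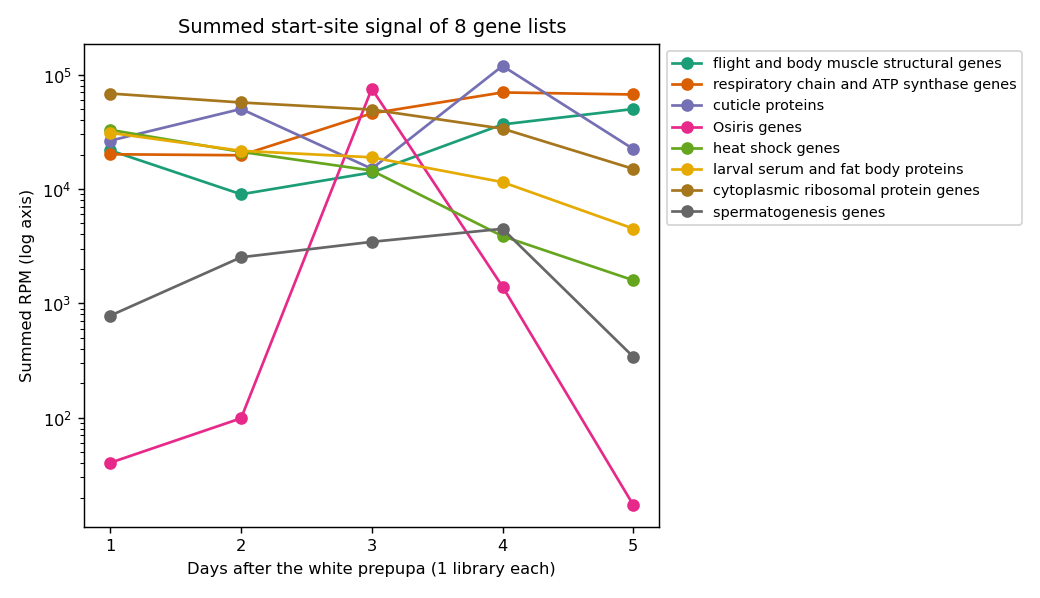
Summed RPM (log axis) of all plus-strand members of 8 gene lists, tested or not, against days after the white prepupa, 1 library per day. The Osiris genes peak at 75214 RPM on day 3 and reach 17.3 RPM on day 5, muscle genes are highest on day 5, at 50024 RPM, and spermatogenesis genes go from 4483 RPM on day 4 to 340.8 RPM on day 5.

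Genes of spermatogenesis, which are made in the testis, were low in the five-day library. Of 18 members, all past the filter, 17 were below all 3 mid pupae, 11 of them at least 4-fold (58.2% and 13.4% of all genes), none was above and none was called. The median log2 change was -3.20, and -2.22 with the 10 genes left out. Their sum was 2527, 3447 and 4483 RPM in the mid pupae and 340.8 RPM at WPP+5d, and 7882 RPM in adult males and 395.4 RPM in adult females. Tpl94D, a protein that packs DNA as the sperm head condenses, read 54.4, 122.8 and 114.7 RPM and then 1.92 RPM (log2 change -4.99 ± 1.77 SE, adjusted p = 0.376, limma). dj (don juan), a protein of the sperm tail, read 224.6, 408.7 and 518.8 RPM and then 46.4 RPM, and was at 1034 RPM in males and 0 in females. Mst98Cb was the one within the range, with 242.3, 22.8 and 413.8 RPM and then 24.0 RPM.

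A male transcript that is not made in the testis alone was low in the same library. roX2 is a noncoding RNA of the dosage compensation complex on the male X chromosome, is made in many male tissues, and is named here after its values were seen. It read 211 RPM at WPP+1d, 661.1, 927.5 and 1149 RPM in the mid pupae, 62.2 RPM at WPP+5d, 734.2 RPM in adult males and 0.176 RPM in adult females. From WPP+4d to WPP+5d roX2 was 18.5-fold lower and the spermatogenesis sum 13.2-fold lower, or 9.12-fold and 6.50-fold with the 10 genes left out. The part of the makeup of the pool by sex in the difference of the spermatogenesis genes and of the respiratory paralogues was not tested. Prosbeta5R2, a proteasome gene named after its values were seen, read 34.1, 14.8 and 53.4 RPM and then 0, and RpL10Aa, a ribosomal protein gene, read 68.2, 217 and 231.9 RPM and then 3.71 RPM, with 127.3 and 339.8 RPM in males and 0 in females.

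Of 3 genes with more signal in adult females than in males, chosen after their values were seen, osk and dhd were above and tapas was below all 3 mid pupae. Both osk and dhd entered through WPP+5d alone and had to be high there, so their place above the range carries that choice. osk (oskar), which assembles the germ plasm, read 0, 0 and 2.26 RPM in the mid pupae and 30.2 RPM at WPP+5d, 13.3-fold over WPP+4d, with 1722 RPM in adult females and 6.19 RPM in adult males. It missed the threshold at an adjusted p = 0.156 (limma) and passed with the 10 genes left out (adjusted p = 0.0444, limma). dhd, a thioredoxin of the egg, read 3.61, 0 and 0.226 RPM and then 24.2 RPM. tapas read 328.9, 983.6 and 238.7 RPM and then 11.9 RPM, with 1349 RPM in adult females and 375.3 RPM in adult males. Later female genes were not at adult levels, since the 5 markers of follicle cells on the plus strand summed to 3.54 RPM at WPP+5d against 47788 RPM in adult females, and 2 of the 5 were at 0. Of 14 genes in the list of egg shell and yolk 3 passed the filter, with 1 above, 1 below and none called (median log2 change -0.97, and 0.23 without WPP+2d). The one above was Cp110, at 117.4 RPM against 89.5 RPM at WPP+2d. It is named for a centriolar protein and not for the egg shell, though it is in the list. Cp110 held most of the list's 134.8 RPM at WPP+5d, so the count above, the median and the sum carry it. Yp3, a yolk protein gene, read 9.17 RPM against 14817 RPM in adult females.

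Male accessory gland genes were present but far from the adult level. Of 16 on the plus strand 4 passed, 1 was called higher (Acp62F, which entered through WPP+5d alone), and none was below all 3 mid pupae, beside 0.481% and 58.2% of all genes. Their median log2 change was 1.73. The list summed to 106.6, 186.9 and 65.8 RPM in the mid pupae, 291.8 RPM at WPP+5d, 51606 RPM in adult males and 89.2 RPM in adult females. Acp62F and the members under the filter were at 0 in the mid pupae. The mid-pupal sums thus came from the 3 tested members within the range, and the median and the sum at WPP+5d carry these too. SP, the sex peptide that changes female behaviour after mating, was under the filter, at 0 in the mid pupae and 5.45 RPM at WPP+5d, with 1430 RPM in adult males.

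**Figure D5:**
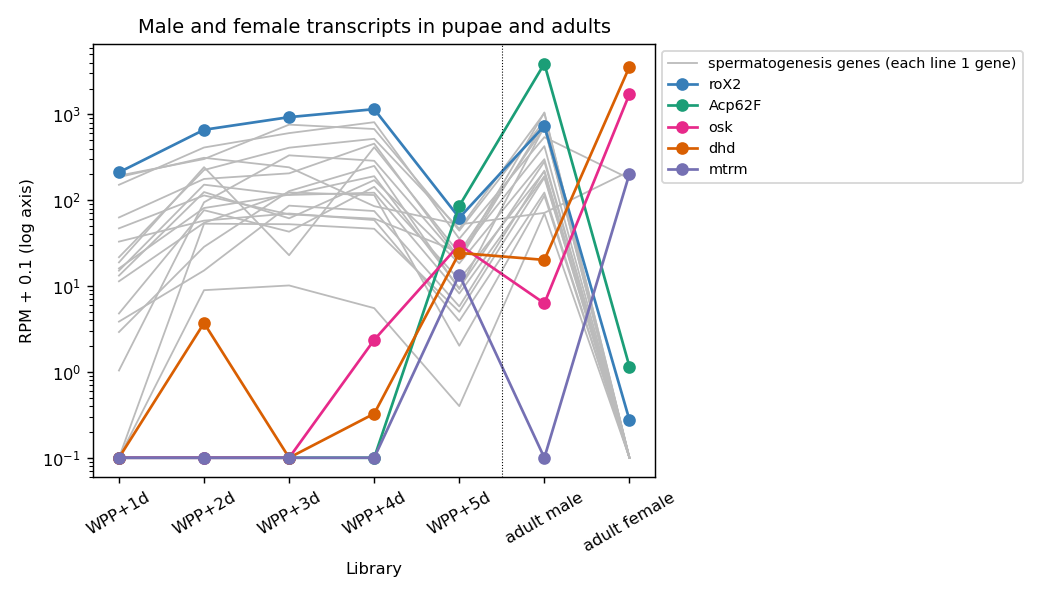
RPM + 0.1 (log axis) of male and female transcripts in the 5 pupal libraries and in adult males and females, 1 point per library. Spermatogenesis genes (grey lines, 1 per gene) and roX2 are lower at WPP+5d than at WPP+4d, roX2 with 62.2 against 1149 RPM, while Acp62F, osk, dhd and mtrm reach 13.5 to 85.8 RPM at WPP+5d.

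Larval products were lower in five-day than in mid pupae. The larval serum proteins are stores of amino acids made by the larval fat body and used up in metamorphosis. All 5 members of the list were below all 3 mid pupae (58.2% of all genes), none was called, and the sum was 21568, 18905 and 11473 RPM and then 4503 RPM. Lsp2 read 10905, 8722 and 5325 RPM and then 1393 RPM, 3.82-fold below the lowest of them. On the scale without the 10 genes the fold from WPP+4d to WPP+5d in the sum shrank from 2.55 to 1.26, and Lsp1alpha lay above the range. The median log2 change was -1.61 on the first scale, close to that of all genes.

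Salivary glue genes, which the larva uses to fix itself before pupation, were at or near 0 at WPP+5d. Of 13 glue and Eig71E genes 4 passed, 3 were below all 3 mid pupae (58.2% of all genes), none was above and none was called, with a median log2 change of -3.32 (-6.59 with members at 0 set to the floor). Sgs3 read 186.9, 33.3 and 67.0 RPM and then 0, at least 185.5-fold lower than the lowest of them (log2 change -6.25 ± 2.23 SE, adjusted p = 0.376, limma). All 4 plus-strand glue genes among the markers of the larval salivary gland were at 0 at WPP+5d.

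By their median change, the genes of protein synthesis and turnover lay close to all genes. Of 38 ribosomal protein genes past the filter, out of 39, 32 were below all 3 mid pupae, beside 58.2% of all genes, and none was above. RpL40 was the 1 called lower, and the median log2 change was -1.21 beside -1.33 for all genes. With the 10 genes left out 12 were below and 7 above, beside 31.7% and 21.2% of all genes, and the median was -0.07. The sum was 57058, 49452 and 33701 RPM and then 14993 RPM. Beside RpL40, RpLP2, an acidic protein of the ribosome's stalk, read 1417, 4148 and 1601 RPM and then 394.2 RPM. The proteasome list had 8 of 17 below (58.2% of all genes) and none above or called, with a median of -0.75 (0.36 with the 10 genes left out). Rpt5, an ATPase of the proteasome's regulatory particle, read 1299, 1191 and 520.2 RPM and then 563.5 RPM.

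Heat shock genes had 8 of 11 below all 3 mid pupae (58.2% of all genes), 1 above and none called, with a median log2 change of -2.05 (-0.97 with the 10 genes left out). The small heat shock genes Hsp27 and Hsp23, chaperones that are under ecdysone control in development, were lower on each day from WPP+2d on than on the day before. Hsp27 read 23118 RPM at WPP+1d, then 13807, 8717 and 1164 RPM, and 191.5 RPM at WPP+5d. Hsp23 read 4992, 2214 and 989 RPM and then 363.6 RPM. The members Hsc70-2 and Hsp60B, also below the range, were at 0 in adult females and at 104.5 and 200.9 RPM in adult males. Hsc70-1 was the one above, with 5.90, 6.88 and 110.2 RPM and then 191.2 RPM.

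Immune genes had 16 of 20 members past the filter below all 3 mid pupae, out of 36 in the list, beside 58.2% of all genes, with none above and none called and a median log2 change of -1.49. With the 10 genes left out 8 of the 20 were below and 1 above, beside 31.7% and 21.2% of all genes, and the median was -0.68. Metchnikowin (Mtk), an antifungal peptide gene, read 119, 38.6 and 37.8 RPM and then 6.23 RPM, and AttD, an attacin gene, read 17.4, 24.9 and 7.92 RPM and then 0. The blood cell and basement membrane list had 1 of 8 above and 3 below, beside 7.64% and 58.2% of all genes, with none called. Its median was -1.13 (0.07 with the 10 genes left out). Hml, hemolectin of blood cells, was the one above, with 0, 0 and 4.53 RPM and then 27.3 RPM. It entered through WPP+5d alone and had to be high there, so the count above and the median carry that choice. LanB1, a laminin chain, read 668.6, 501.8 and 503.2 RPM and then 133.3 RPM.

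Of 76 detoxification genes on the plus strand 45 passed the filter, 13 were above and 8 below all 3 mid pupae, beside 7.64% and 58.2% of all genes, and none was called. Across the 45 the median log2 change was 0.53 (1.65 with the 10 genes left out, and 0.09 without WPP+3d). Of these, 9 entered through WPP+5d alone, GstE4 among them, so that the counts and the median carry that choice. GstE4, a glutathione transferase, was at 0 in the mid pupae and at 29.1 RPM at WPP+5d. It missed the threshold at an adjusted p = 0.0619 (limma) and passed with the 10 genes left out (adjusted p = 0.00825, limma). Cyp12a4, a mitochondrial cytochrome P450 gene, read 1.31, 0 and 7.24 RPM and then 49.5 RPM, with 366.1 RPM in adult males. Digestive enzymes, 9 of 27 past the filter, had 3 above and 3 below, beside the same shares of all genes, with none called. Their median was 1.01 (0.47 without WPP+3d), and 2 of the 9 entered through WPP+5d alone. Amy-d, an amylase gene, read 0, 0 and 0.226 RPM and then 13.0 RPM, whereas Jon99Fi, a serine protease gene, read 29.2, 0.529 and 8.82 RPM and then 0.

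Genes of fatty acids and cuticular hydrocarbons, the waxes that waterproof the adult, had 4 of 7 members tested. Of these, 2 were above all 3 mid pupae and none below, beside 7.64% and 58.2% of all genes, and none was called. The median log2 change was 1.27. FASN2, a fatty acid synthase, read 1.31, 16.9 and 40.5 RPM and then 44.5 RPM, with 511.3 RPM in adult males, and Desat1, a desaturase, read 79.9 RPM at WPP+5d and 2585 RPM in adult males. Adh, alcohol dehydrogenase, named after its values were seen, read 103, 122.3 and 80.8 RPM and then 666.5 RPM, with 8984 RPM in adult males. Of the juvenile hormone and takeout list 6 of 11 passed, 1 was called higher (Jhbp13, which entered through WPP+5d alone) and 3 were below all 3 mid pupae, beside 0.481% and 58.2% of all genes, with a median of -0.20 (1.42 with the 10 genes left out). Jhe, the esterase that breaks down juvenile hormone, read 107.9, 93.2 and 96.2 RPM and then 10.9 RPM. Jhbp7, named after its values were seen, read 2164, 352 and 114.5 RPM and then 5.57 RPM.

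The remaining lists were small and held no call. Their counts stand beside 7.64% of all genes above and 58.2% below all 3 mid pupae. Of 10 of 12 replication and cell cycle genes past the filter, 4 were below all 3 mid pupae and none above, with a median log2 change of -1.03 (0.00 with the 10 genes left out). polo, a mitotic kinase, read 92.1, 18.5 and 5.43 RPM and then 5.39 RPM. Cell death genes had 2 of 5 below, Dcp-1 and Debcl, and none above (median -1.02, and 0.10 with the 10 genes left out), and the caspase gene Dcp-1 read 714.5, 280 and 171.3 RPM and then 53.8 RPM. Of the clock genes 4 of 5 passed and 3 were below, with none above and a median of -0.92 (0.21 with the 10 genes left out), and vri, a repressor in the clock, read 373.8, 389.6 and 70.8 RPM and then 13.7 RPM. Time of day at collection is not given in the labels. Metal and iron genes had 3 of 5 below and 1 above, with a median of -1.68. The metallothionein gene MtnD read 1084, 190.6 and 114.3 RPM and then 20.6 RPM, and its relative MtnC, the one above, read 95.4, 12.2 and 11.3 RPM and then 104.7 RPM.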

How the data were processed

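RAMPAGE start-site signal was deposited by the authors as RPM per gene (reads per 1000000 reads) for 12698 genes, with 1 value per gene and stage. STAR, Cufflinks and the build dm3 appear in the submitters' processing notes, with neither versions nor their use. The counting of reads and the handling of duplicates are not given in the sources used here. The authors also deposited a list of genic peaks with a score of unstated meaning, used here for strand and position (that of a gene's highest-scoring peak, starts counted from 1). Gene identifiers were matched to symbols with reference tables, and 277 of 4990 tested genes stayed without one.

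Pupal columns hold 0 for all 6384 minus-strand genes, so the 6313 plus-strand genes were rescaled to a sum of 1000000 per library, and 1 gene with peaks on both strands was left out. Whole reads were recovered from the RPM steps (tolerance 0.01 of a read, 100% of values whole in the libraries fitted). Genes that reached 10 RPM in any of the 4 compared libraries were tested on log2(RPM + 1) in R 4.3.3 with limma 3.58.1, using a trended prior variance (eBayes). The fit held 10 larval and pupal libraries in 5 groups (L1 with L2 larvae, L3 larvae, WPP+1d, WPP+2d to WPP+4d, and WPP+5d), with 5 residual degrees of freedom. Benjamini-Hochberg adjustment ran over all genes tested. edgeR 4.0.16 on recovered reads was an alternative, and the steps were tested on simulated data. A gene at 0 was set to a floor of 3 reads of its library for a bound on its fold change. Counting error alone is covered by that floor, since reads are not distinct molecules.

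Other alternatives were 2 scalings, an added constant of 10 RPM, no filter or a filter on the mean, a fit of the 4 libraries alone, each mid-pupal library left out, and other fold thresholds. Named genes are, in each direction, the 12 with the largest change among called genes outside the range of the mid pupae, filled where needed from those at least 4-fold outside it. CG-numbered genes were left out there. The 10 highest genes of WPP+5d and, of each list, up to 4 members with the largest change and the most abundant members were named too. The members and the 31 gene lists were chosen with earlier results of these data known. List members tested numbered 433 of 603 on the plus strand. Of the genes tested, 159 share identical values with another gene, so their reads may be counted under several identifiers.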

Additional observations from a re-analysis of the deposited data

How the results depend on the processing

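Calls depended on the scaling, the filter and the tool, and limma's 25 calls are a small count from 1 library against 3. There were 55 calls with the 10 highest genes of WPP+5d left out, 59 with the 10 highest genes of each of the 10 fitted libraries left out (58 genes, an alternative chosen after seeing the data), 48 with median-of-ratios scaling, 118 with no filter and 13 with a mean of at least 10 RPM. Fitting only the 4 compared libraries gave 0 calls, with 902 genes at an unadjusted p below 0.05 and 2 residual degrees of freedom, and edgeR gave 2, with 287 at an unadjusted p below 0.05. Leaving out each mid-pupal library in turn gave 36 to 85 calls, the highest without WPP+4d. Of limma's 25 calls, 24 were shared with the fit without the 10 highest genes, 24 with median-of-ratios scaling, 23 to 24 with those that leave out 1 library, 13 with the mean filter and 18 with an added 10 RPM, which gave 28 calls and lost Obp19b and mtrm. The cause of these differences was not tested. The genes at least 4-fold outside the range numbered 782, against 477 with median-of-ratios scaling (245 above and 232 below, so that 51.36% were above), 287 with an added 10 RPM, 1821 at a 2-fold threshold, and 967 to 1421 with 1 library left out.

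With the 10 highest genes of WPP+5d left out the median log2 change became 1.98 for chitin, 1.05 for tanning, 1.37 for respiratory, 1.90 for glycolytic, 2.05 for phototransduction, 1.01 for neuronal, -2.22 for spermatogenesis and 3.62 for accessory gland genes. It became -0.48 for larval serum, 1.42 for juvenile hormone, 1.65 for detoxification, 2.40 for hydrocarbon, -0.07 for ribosomal, 0.36 for proteasome, -0.97 for heat shock, 0.07 for blood cell, 0.10 for cell death and 0.21 for clock genes. Among these the sign turned for chitin, tanning, neuronal, juvenile hormone, proteasome, blood cell, cell death and clock genes, and for egg shell genes it turned to 0.03. The summed RPM at WPP+5d became 1189 for tanning, 110527 for respiratory, 4567 for glycolytic, 2927 for phototransduction, 5481 for neuronal, 2130 for neuropeptide and 1067 for digestive genes. It became 683.4 for accessory gland, 315.6 for egg shell (Cp110 included), 10548 for larval serum, 1325 for juvenile hormone, 2708 for detoxification and 527.8 for hydrocarbon genes. For ribosomal genes it became 35117, for proteasome genes 4696, for blood cell genes 1516 and for clock genes 882.2. By the construction of RPM values, leaving out the 10 genes scales all others up at WPP+5d. With 1 mid-pupal library left out the median ran from 0.35 to 1.08 for glycolytic, from -3.66 to -3.04 for spermatogenesis, from -1.51 to 0.23 for egg shell, from 0.09 to 0.50 for detoxification, from 0.72 to 1.08 for hydrocarbon and from -1.82 to -0.49 for cell death genes. It ran from -1.81 to 0.00 for cuticle, from -0.17 to 0.72 for respiratory, from 0.18 to 1.52 for phototransduction, from 0.97 to 3.07 for muscle, from 0.48 to 2.03 for neuropeptide and from 0.47 to 1.87 for digestive genes. For ecdysone genes it ran from -3.20 to -1.16, for apical matrix genes from -4.32 to -2.24 and for Osiris genes from -4.44 to -2.13.

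No paired analysis was possible because each stage has 1 library and replicate numbers name stages in accession order. The pupal depth limits low values: 1 read was worth 0.529 RPM at WPP+3d and 0.0599 RPM at WPP+5d. Genes seen in the deepest library alone can be below detection in the others.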

Other observations

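Several short-range groups of genes known by number, chosen here after their values were seen, were high together at WPP+5d. CG13065, CG13067 and CG13068 lie within 8.55 kb of chromosome 3L by their highest peaks on dm3. CG13068 read 448.9, 0 and 2.26 RPM in the mid pupae and 6059 RPM at WPP+5d, and CG13065 read 344, 41.3 and 17268 RPM and then 5551 RPM. CG13067 and CG13068 thus shared a course, high at WPP+2d, low on the next days and highest at WPP+5d, whereas CG13065 was highest at WPP+4d. CG13678 and CG13679 lie within 19.6 kb on another stretch of the same arm. CG13679 read 182.6, 62.5 and 0.453 RPM and then 1677 RPM, in the same order of days as CG13678. On chromosome X, CG12998 and CG5172 lie within 2.68 kb, with 126.9, 18.0, 820 and then 2253 RPM for CG12998 and 7.21, 14.8, 112.5 and then 1866 RPM for CG5172. None of these genes was called, and their share of common sequence was not examined.

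CG34199 read 48.5, 1.59 and 12.4 RPM in the mid pupae and 3716 RPM at WPP+5d, 76.6-fold above the highest of them, and it was near 0 in adults. CG5023 read 4.59, 26.5 and 79.6 RPM and then 2303 RPM.

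CG17298 also differed from other genes in the relation of its reads to the peak score in the authors' deposited list. Summed over 35 libraries it had 7107354 reads, 7102793 of them at WPP+5d, and 249.7 reads per unit of score. The median of the genes tested was 2.13 and their 99th percentile was 10.3. The next highest was Cpr49Ae with 28.5. The meaning of that score is not given in these sources. In the embryo libraries of the table of all genes, the highest value of CG17298 was 403.7 RPM, at 17 to 18 h.

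Transcripts of the larval fat body were lower at WPP+5d than in the mid pupae. The 4 larval serum protein genes among the fat body markers summed to 15203, 11726 and 8062 RPM in the mid pupae, 2532 RPM at WPP+5d and 270 RPM in adult males. No marker of the midgut list lies on the plus strand, so that tissue has no value here.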
